A study of Mus musculus with 6 samples.

Results

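Glutathione is the small thiol with which cells reduce peroxides and tag reactive compounds for removal. Glutathione transferases join it to electrophiles, peroxidases use it to reduce peroxides, and the transcription factor NRF2, held back by its repressor KEAP1, drives many of the genes that make and recycle it. In macrophages these enzymes are known to buffer the oxidants of the respiratory burst. The genes described here are 36 members of this system, taken as a list of genes named by pathway, which was drawn up with earlier results of these data known: 22 glutathione transferases (7 of the mu class, 3 alpha, 3 theta, 3 microsomal, 2 omega, 2 pi, and 1 each of kappa and zeta), and 14 genes of glutathione synthesis, peroxide reduction, thioredoxin and quinone reduction, and the NRF2-KEAP1 pair. All 36 were found among the 56980 genes of the table, and 35 of them were among the 14776 genes tested.

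The study asked how loss of C5aR, the receptor of the complement fragment C5a, alters tumor-associated macrophages (TAMs). Wild-type (WT) and C5aR-/- mice, female C57BL/6 animals of 6 to 8 weeks, received ID8 cells, an epithelial line of mouse ovarian cancer, by intraperitoneal injection, and TAMs were sorted from the tumors after 2 months as live CD45+CD11b+Ly6G-F4/80+ cells. C5aR was absent from every cell of the knockout host and not only from macrophages, and the injected tumor cells were the same in both groups. Each group had 3 RNA libraries, while the study's legends give more mice per group than that. The sources used here do not tie single libraries to mice, so p-values measure the spread between libraries. Values are transcript abundances in TPM, which are normalized for transcript length and library total, keep no record of sequencing depth and give no counting error.

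C5ar1, which encodes C5aR, was between 16.2 and 86.5 TPM in WT TAMs and between 0.05 and 0.38 TPM in C5aR-/- TAMs, so the libraries matched their labels. The macrophage gene Adgre1, which encodes F4/80, ranged from 25.4 to 114 TPM over the 6 libraries and its groups overlapped. Krt8, a keratin gene of epithelial cells, which the gate should remove, was at 455 to 465 TPM in WT and at 624 to 758 TPM in C5aR-/- TAMs, so this keratin RNA was present in every library. In such bulk samples, fewer cells of a type and less RNA per cell cannot be told apart.

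Of the 35 tested genes, 7 were called by limma on log2(TPM + 1), which here means an unadjusted p under 0.05 together with a change of 2-fold or more, 2 higher and 5 lower in C5aR-/- TAMs. Over all tested genes this threshold called 4.96%, with 2.13% higher and 2.84% lower. All 7 genes were glutathione transferases, of which 21 were tested, and 0 of the 14 other genes passed. Gsto1 (omega class) and Gsta2 (alpha class) were higher, and Gsta3 (alpha class) and Gstm1, Gstm2, Gstm6 and Gstm7 (mu class) were lower. Gsta2 is in these counts although it reached 1 TPM in 0 WT libraries and was tested only through its 3 C5aR-/- libraries. At an adjusted p under 0.05 limma called 0 of the 35, as it did over all tested genes (0%), with adjusted p from 0.117 to 0.985, and 8 of the 35 (22.9%) had an unadjusted p under 0.05, against 2133 of all tested genes (14.4%). The groups did not overlap in 8 genes, 3 of them above and 5 below all WT libraries, against 21.3% of all tested genes, with 8.84% above and 12.5% below. The median log2 difference of the 35 genes was -0.07, beside -0.05 over all tested genes.

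**Figure D1:**
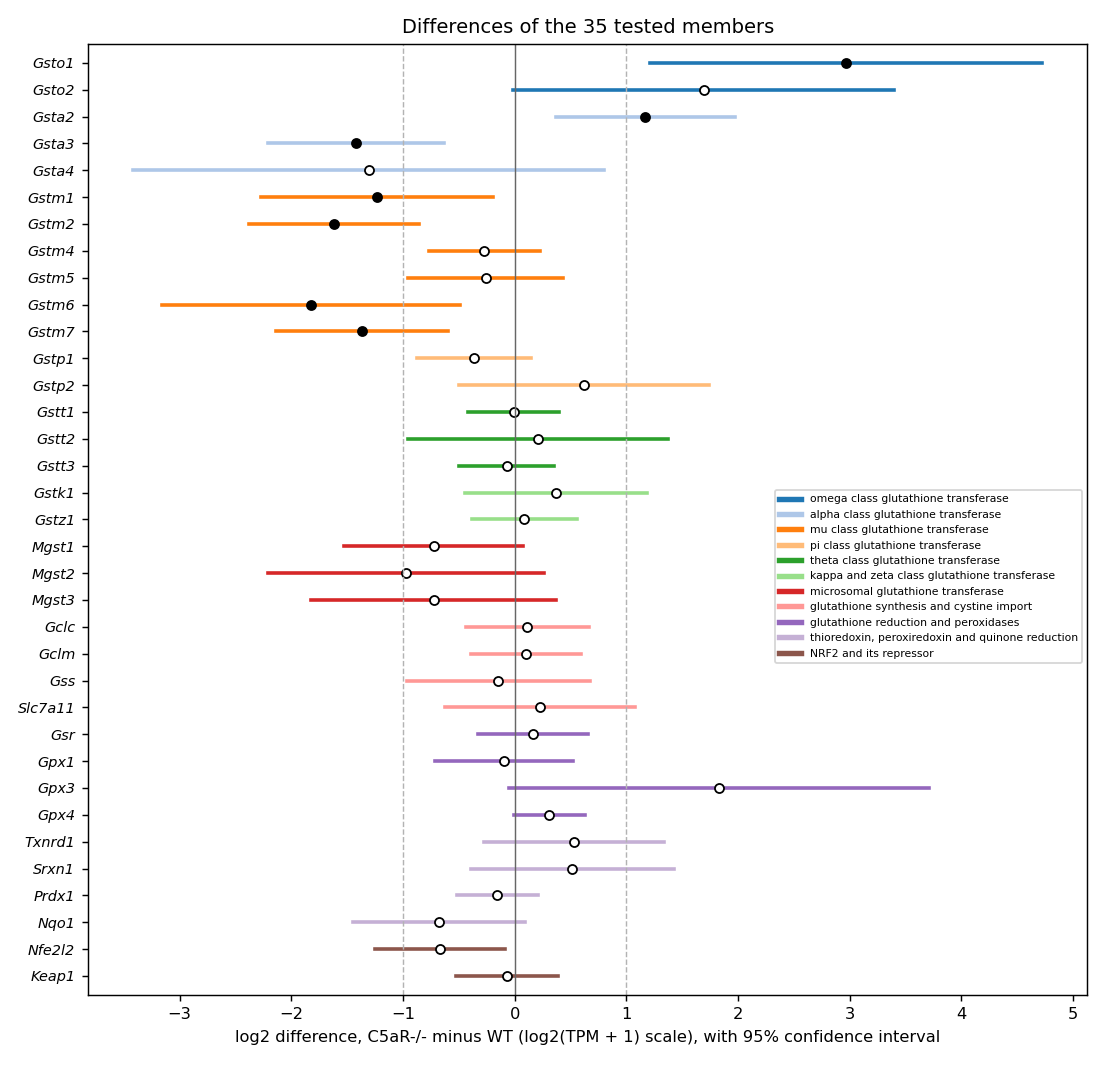
Log2 difference between C5aR-/- and WT TAMs on the log2(TPM + 1) scale (x axis) for the 35 tested genes (y axis), with the 95% confidence interval as a bar colored by gene class. Filled points mark the 7 genes that were called (unadjusted p under 0.05 and at least 2-fold), and dashed lines mark a 2-fold change. Gsto1 stands farthest to the right at 2.97 and Gstm6 farthest to the left at -1.82.

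The omega class gave the largest positive difference of the 35 genes. Gsto1, a transferase that reduces dehydroascorbate and methylated arsenic and can remove glutathione from proteins, had 30.4, 12.0 and 16.4 TPM in WT TAMs and 47.5, 188 and 369 TPM in C5aR-/- TAMs. Every C5aR-/- library lay above every WT library, with C5aR-/- TAM 1 the nearest to the WT range. The mean was 19.6 ± 9.60 TPM in WT and 202 ± 161 TPM in C5aR-/- TAMs (SD, n = 3), 10.3-fold higher, and the log2 difference was 2.97, with a standard error (SE) of 0.74 and an adjusted p of 0.170 in limma. It kept its unadjusted call under all 15 alternatives, with a log2 difference from 2.32 to 3.78 when 1 library was left out.
Gsto2, the second omega gene, had 1.02, 0.46 and 0.57 TPM in WT and 0.60, 9.53 and 8.25 TPM in C5aR-/- TAMs. C5aR-/- TAM 1 lay among the WT libraries, so the groups overlapped and the difference of 1.69 (SE 0.71) was not called (adjusted p = 0.349). Without C5aR-/- TAM 1 the log2 difference was 2.57 (adjusted p = 0.0167, and from 0.000456 to 0.747 over its alternatives). Gsto1 made up 95.2% to 98.8% of the summed omega TPM in each library.

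Gsto1 (chr19:47854970-47864790) and Gsto2 (chr19:47865534-47886324) lie next to each other on the plus strand in GRCm38. The 20 tested protein-coding genes closest to the pair, 10 on each side, had a median log2 difference of 0.12 and a range from -2.00 to 0.997. Of these, 0 were called higher and 2 lower. Itprip, the gene that follows Gsto2, had the upper end of that range (0.997, SE 0.14) and was above all WT libraries in each C5aR-/- library. So were Neurl1a (0.788), Mxi1 (0.662), Stn1 (0.507), Slk (0.268) and Xpnpep1 (0.236). Col17a1 (-2.00), Add3 (-1.12) and Sorcs1 (-0.97) were below all WT libraries, and the groups overlapped in the other neighbors. Over all tested genes, 8.84% lay above and 12.5% below all WT libraries.

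**Figure D2:**
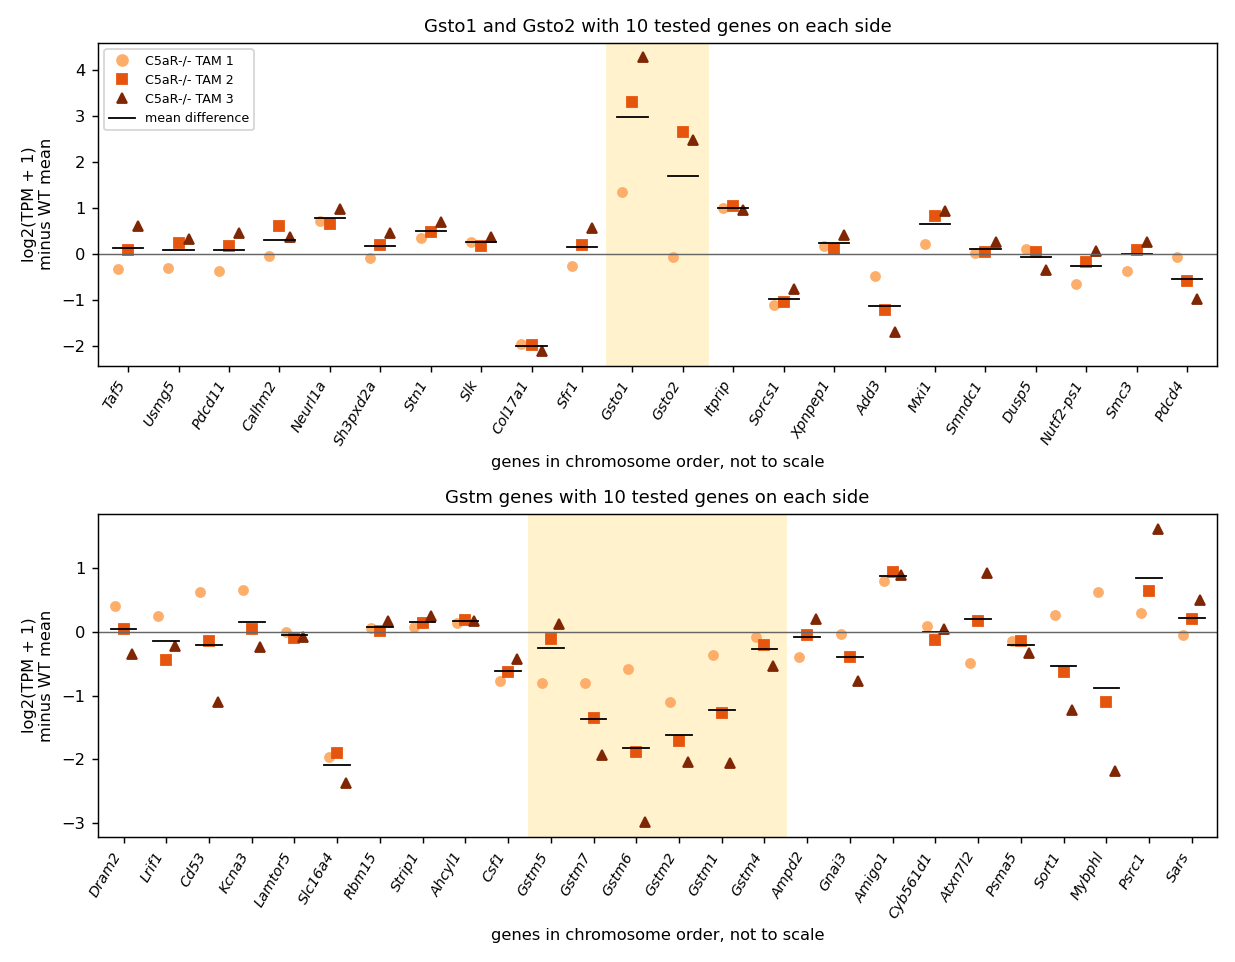
Log2(TPM + 1) minus the WT mean (y axis) in the 3 C5aR-/- libraries for genes in chromosome order (x axis, not to scale), around the Gsto genes (upper panel) and the Gstm genes (lower panel), with 10 tested genes on each side. Symbols stand for single libraries, black lines for the mean difference, and shading marks the transferase genes. Gsto1 and Gsto2 stand above their neighbors in C5aR-/- TAM 2 and TAM 3, and Gstm7, Gstm6, Gstm2 and Gstm1 lie below 0 in all 3 libraries.

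The mu class gave the largest group of lower genes. These are cytosolic transferases for reactive aldehydes, epoxides and quinones. All 6 tested mu genes had a negative log2 difference, 4 of them passed the unadjusted threshold, and the median was -1.30. Over all 14776 tested genes, 8206 had a negative log2 difference. The summed TPM of the class was 2330.1, 2813 and 1601 in WT TAMs and 1373, 799 and 538 in C5aR-/- TAMs, without overlap. Gstm1 and Gstm2 held nearly all of that sum, Gstm1 from 48.4% to 61.5% and Gstm2 from 34.3% to 47.9% of it in each library.

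Gstm2 had 1062, 1346 and 715 TPM in WT and 471, 307 and 244 TPM in C5aR-/- TAMs. All C5aR-/- libraries lay below all WT libraries. The mean was 1041 ± 316 TPM against 340.5 ± 117 TPM (SD, n = 3), 3.06-fold lower in C5aR-/- TAMs, with a log2 difference of -1.62 (SE 0.32, adjusted p = 0.117), the smallest adjusted p of the 35 genes.
Gstm1 had 1191, 1362 and 798 TPM in WT and 845, 452 and 261 TPM in C5aR-/- TAMs. C5aR-/- TAM 1 lay above WT TAM 3, so the groups overlapped. Its log2 difference was -1.23 (SE 0.43, adjusted p = 0.285), and the unadjusted call was lost without WT TAM 1, WT TAM 2, C5aR-/- TAM 2 or C5aR-/- TAM 3, with log2 differences from -1.66 to -0.82 over all single omissions.

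The 2 less abundant called mu genes showed the same order of groups. Gstm6 had 43.8, 56.2 and 45.5 TPM in WT and 31.9, 12.3 and 5.19 TPM in C5aR-/- TAMs, and differed by -1.82 on the log2 scale (SE 0.56, adjusted p = 0.233). Gstm7 had 13.9, 20.5 and 14.5 TPM in WT and 8.79, 5.67 and 3.45 TPM in C5aR-/- TAMs, and differed by -1.36 (SE 0.32, adjusted p = 0.161). In both genes the groups did not overlap and C5aR-/- TAM 3 was the lowest library. Gstm4 (log2 difference -0.27, 95% confidence interval -0.77 to 0.23) and Gstm5 (-0.26, interval -0.95 to 0.43) were not called. Gstm3 stayed between 0.19 and 0.67 TPM and was not tested.

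The mu genes form 1 cluster on chromosome 3, from Gstm5 at 107895821 to Gstm4 at 108044894 in GRCm38, in the order Gstm5, Gstm7, Gstm6, Gstm3, Gstm2, Gstm1 and Gstm4. The 4 called genes thus lay side by side, with the untested Gstm3 among them, and the uncalled Gstm5 and Gstm4 formed the ends. The 20 tested protein-coding genes around the cluster had a median log2 difference of -0.03, with 0 called higher and 1 called lower. Near-identical copies can share reads: 14.8% of the 75-base words of the Gstm1 transcript occur in transcripts of other genes, with 5.34% for Gstm6, 3.13% for Gstm2 and 0% for Gstm7.

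**Figure D3:**
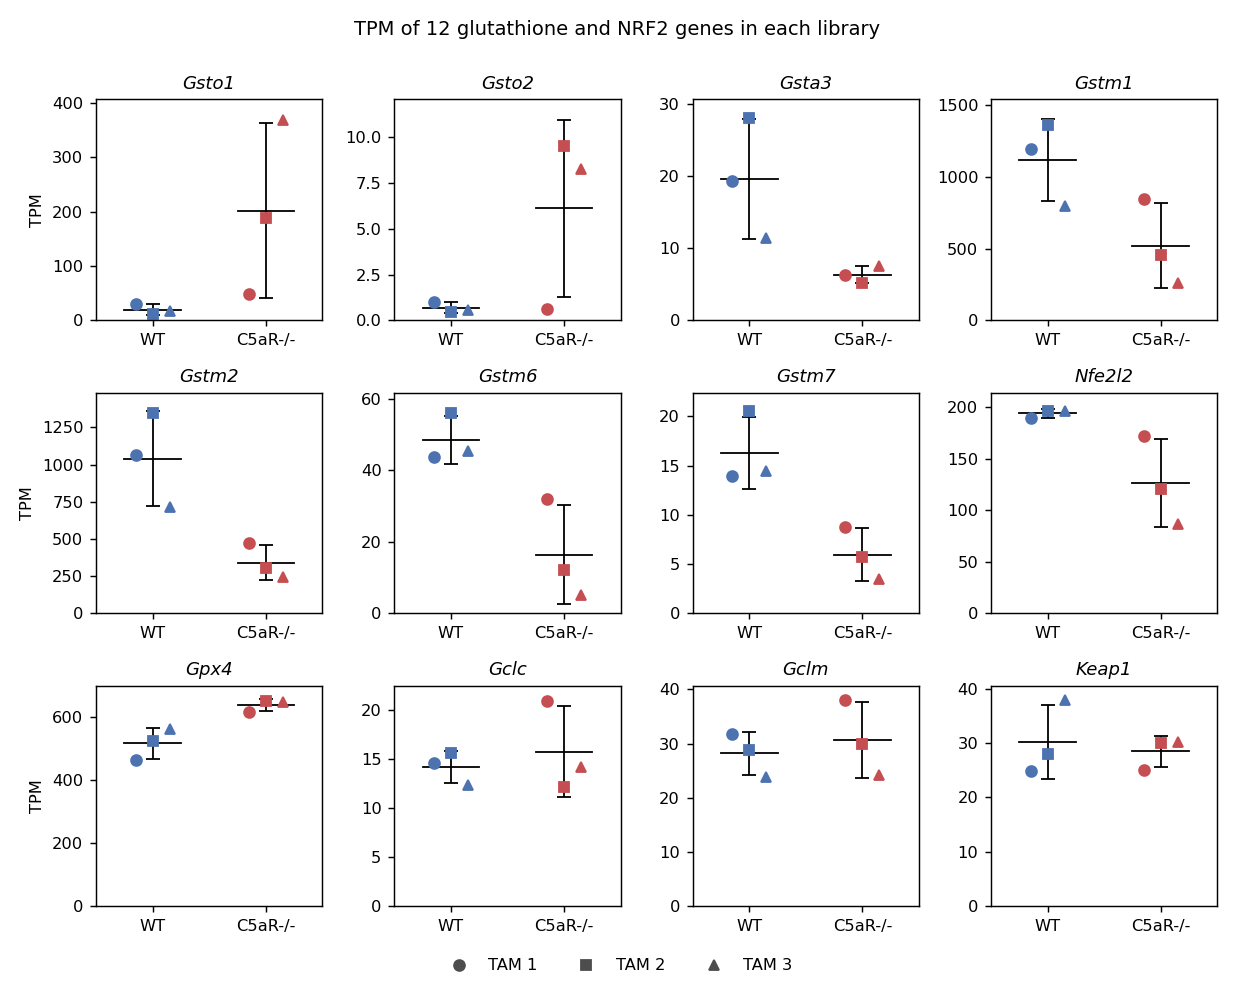
TPM (y axis, from 0) of 12 genes in WT (blue) and C5aR-/- (red) TAMs (x axis). Symbols stand for single libraries, horizontal lines for the group mean and bars for the SD (n = 3). Gsto1 reaches 369 TPM in C5aR-/- TAM 3, Gstm2, Gstm6 and Gstm7 lie lower in every C5aR-/- library, and Gclc, Gclm and Keap1 overlap between groups.

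The alpha class, transferases and peroxidases for lipid peroxidation products, had no common direction. Gsta3 had 19.4, 28.0 and 11.4 TPM in WT and 6.30, 5.15 and 7.58 TPM in C5aR-/- TAMs. The C5aR-/- libraries were close together, at 6.34 ± 1.22 TPM against 19.6 ± 8.31 TPM in WT (SD, n = 3), and lay below all WT libraries. Its log2 difference was -1.42 (SE 0.33, adjusted p = 0.156), and it kept its unadjusted call under all 15 alternatives. Gsta2 had 0.26, 0.68 and 0 TPM in WT and 3.03, 1.20 and 1.71 TPM in C5aR-/- TAMs, a log2 difference of 1.17 (SE 0.34, adjusted p = 0.217). It passed the filter on low TPM only through the C5aR-/- libraries, 46.9% of its 75-base words occur in other transcripts, Gsta1 among them, and its log2 difference was below the threshold without WT TAM 3 (0.99), without C5aR-/- TAM 1 (0.93) and with array weights (0.53), and 2.68 with a pseudocount of 0.1, so its call and its size are uncertain. Gsta4, which conjugates the lipid aldehyde 4-hydroxynonenal, was the class's most abundant gene, with 294, 286 and 329 TPM in WT and 469, 126 and 29.9 TPM in C5aR-/- TAMs. Its C5aR-/- libraries lay on both sides of the WT range, and the difference of -1.31 (SE 0.88) was not called (adjusted p = 0.545).

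The microsomal transferases are membrane-bound enzymes that also act on lipid peroxides and leukotriene precursors. They had negative log2 differences in 3 of 3 genes, beside 8206 of all 14776 tested genes, and 0 of the 3 were called. Mgst1 was among the most abundant of the 36 genes, with 784, 1093 and 1348 TPM in WT and 993, 560.3 and 458 TPM in C5aR-/- TAMs. C5aR-/- TAM 1 lay within the WT range, and the log2 difference was -0.73 (95% confidence interval -1.53 to 0.08, adjusted p = 0.387). For Mgst2 and Mgst3 it was -0.97 and -0.73, and C5aR-/- TAM 3 was the lowest library for all 3 genes. The pi genes Gstp1 (-0.37) and Gstp2 (0.62) were not called and share 57.7% and 68.2% of their 75-base words with other transcripts, mainly each other's, so the division of reads between them is uncertain. The theta genes Gstt1, Gstt2 and Gstt3, the kappa gene Gstk1 and the zeta gene Gstz1 had log2 differences from -0.07 to 0.37, and 0 of the 5 were called or had groups apart. Summed over all 22 transferases, TPM was 4026, 4862 and 3968 in WT and 3565, 2158 and 1820.4 in C5aR-/- TAMs, without overlap.

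Genes that supply glutathione were not called. Gclc, the catalytic subunit of glutamate-cysteine ligase, the rate-limiting enzyme of synthesis, had 14.6, 15.6 and 12.4 TPM in WT and 20.9, 12.1 and 14.2 TPM in C5aR-/- TAMs. Its modifier subunit Gclm had 31.8, 28.9 and 23.9 TPM in WT and 38.1, 29.9 and 24.2 TPM in C5aR-/- TAMs. For both the groups overlapped, with log2 differences of 0.11 (95% confidence interval -0.44 to 0.66) and 0.10 (interval -0.39 to 0.60). Gss, which completes glutathione, had 25.0, 24.5 and 26.5 TPM in WT and 39.2, 21.5 and 13.9 TPM in C5aR-/- TAMs, whose libraries lay on both sides of WT (log2 difference -0.14, interval -0.97 to 0.68). Slc7a11, the cystine importer, had 2.28, 2.55 and 0.76 TPM in WT and 2.77, 2.65 and 1.38 TPM in C5aR-/- TAMs, with a log2 difference of 0.23 (interval -0.63 to 1.08). These intervals reach no more than about the 2-fold threshold, and differences within them are not excluded with 3 libraries per group.

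Among the genes that recycle or spend glutathione on peroxides, Gpx4, which reduces lipid hydroperoxides in membranes, had 463, 523 and 560.0 TPM in WT and 616, 650.0 and 645 TPM in C5aR-/- TAMs. The groups did not overlap, the means were 515 ± 49.1 and 637 ± 18.4 TPM (SD, n = 3), and the log2 difference of 0.31 (SE 0.13, adjusted p = 0.359) did not reach the threshold. Of its 75-base words, 55.3% occur in Gpx4-ps2, a pseudogene. The secreted peroxidase Gpx3 had 9.40, 3.46 and 2.02 TPM in WT and 51.8, 16.2 and 5.91 TPM in C5aR-/- TAMs, a log2 difference of 1.83 (SE 0.79, adjusted p = 0.359) with C5aR-/- TAM 3 inside the WT range. Gpx1, the abundant cytosolic peroxidase, and Gsr, which regenerates glutathione from its oxidized form, had log2 differences of -0.10 and 0.16.

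The thioredoxin reductase Txnrd1 and the sulfiredoxin Srxn1, which repairs overoxidized peroxiredoxins, were highest in the same library. Txnrd1 was at 174 TPM in C5aR-/- TAM 1 and from 58.0 to 93.5 TPM in the other 5 libraries, and Srxn1 was at 62.6 TPM there and from 20.9 to 26.6 TPM elsewhere. Their log2 differences of 0.53 and 0.52 were not called. Nqo1, a quinone reductase widely used as an NRF2 readout, had 14.4, 18.4 and 13.2 TPM in WT and 14.7, 8.76 and 5.78 TPM in C5aR-/- TAMs, a log2 difference of -0.68 (95% confidence interval -1.45 to 0.10, adjusted p = 0.398). The peroxiredoxin Prdx1 had a log2 difference of -0.16 (interval -0.52 to 0.21).

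Nfe2l2, which encodes NRF2, had 189, 197 and 197 TPM in WT and 172, 121 and 86.5 TPM in C5aR-/- TAMs. The WT libraries were close together at 194 ± 4.17 TPM, and all C5aR-/- libraries lay below them at 127 ± 43.2 TPM (SD, n = 3). Its log2 difference was -0.67 (SE 0.24, adjusted p = 0.296), below the 2-fold threshold. Keap1 had 24.8, 28.0 and 37.9 TPM in WT and 25.1, 30.1 and 30.2 TPM in C5aR-/- TAMs, with overlapping groups (log2 difference -0.07, interval -0.53 to 0.39). RNA of Nfe2l2 and Keap1 does not measure NRF2 activity, which is set largely by protein turnover.

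NRF2 binds the antioxidant response element, whose core was searched on both strands as TGACNNNGC in windows of 250 bases before to 50 after each start (RefSeq, GRCm38.p6). Of the 32 genes with a window, 9 (28.1%) held it, against 14.0% of all 27025 genes with a window: Gsta3, Gstm5, Gstm7, Mgst1, Gclm, Txnrd1, Srxn1, Prdx1 and Nfe2l2. Of these 9, 2 were called (Gsta3 and Gstm7), beside 7 of all 35 tested genes. The match in Prdx1 overlaps the AP-1 motif TGANTCA. Given here with 10 bases on each side and the core in capitals are the sites of the 2 called genes beside 3 uncalled ones, all written 5′ to 3′ on the strand of the match. They lie at chr1:21240454-21240482 (Gsta3, plus strand), chr3:107931725-107931753 (Gstm7, minus), chr3:107895802-107895830 (Gstm5, plus), chr3:122245413-122245441 (Gclm, minus) and chr10:82859104-82859132 (Txnrd1, minus).
Gsta3: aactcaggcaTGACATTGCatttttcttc
Gstm7: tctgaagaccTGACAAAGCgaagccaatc
Gstm5: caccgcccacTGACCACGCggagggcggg
Gclm: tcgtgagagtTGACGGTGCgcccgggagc
Txnrd1: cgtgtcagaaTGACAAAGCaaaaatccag
The cores of Gstm7 and Txnrd1 are the same 9 letters, and the log2 differences of these genes were -1.36 and 0.53. A match of letters is not a measured binding site.

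Other genes of the pathway, 93 in 4 lists of which 88 were tested, were called in 5 cases (5.68%), 1 higher and 4 lower, a share near the 4.96% of all tested genes. Among other glutathione genes (23 tested, median log2 difference -0.15), Chac1, which degrades glutathione, was higher with 4.08, 2.96 and 2.69 TPM in WT and 8.38, 6.08 and 15.1 TPM in C5aR-/- TAMs (log2 difference 1.28, adjusted p = 0.186), and Ggt5, a gamma-glutamyltransferase, was lower (-1.39). Of the 26 other NRF2 target genes (median log2 difference 0.20), 21 had a positive difference, against 6570 of all 14776 tested genes. Yet 0 of the 26 were called higher, and Me1, the cytosolic malic enzyme that supplies NADPH, was called lower (-1.08). Hmox1, heme oxygenase 1, had 436, 274 and 50.7 TPM in WT and 1235, 518 and 152 TPM in C5aR-/- TAMs, with wide overlap (log2 difference 1.33, SE 0.995, adjusted p = 0.588). Among the 24 thioredoxin, peroxiredoxin and related enzymes (median -0.09) the methionine sulfoxide reductase Msrb2 was lower (-1.17), and among 15 NRF2 regulators (median 0.03) the related factor Nfe2 was lower (-1.54).

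**Figure D4:**
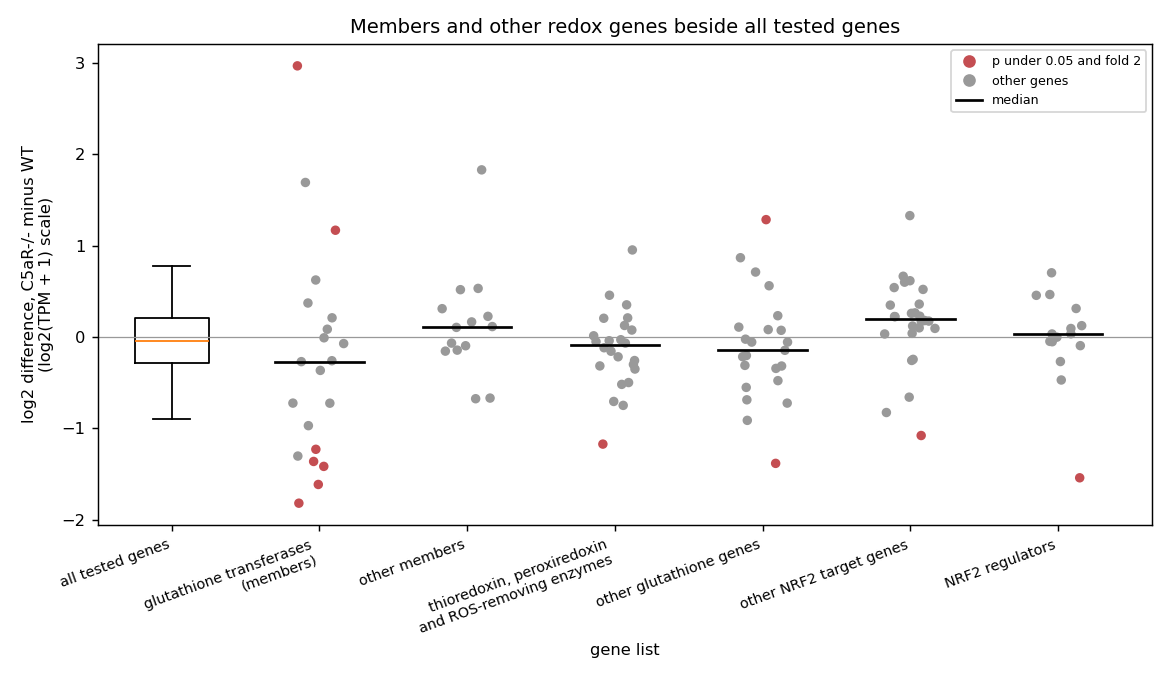
Log2 difference between C5aR-/- and WT TAMs (y axis, log2(TPM + 1) scale) of single genes in each list (x axis), with called genes (unadjusted p under 0.05 and at least 2-fold) in red and medians as black lines. The box for all 14776 tested genes spans the quartiles, its whiskers the 5th to 95th percentile. The called genes are mostly transferases, 7 against 5 in the 4 other lists and 0 among the other 14 members.

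The C5aR-/- libraries differed from each other in these genes and in other lists. Of the 35 tested genes, 16 lay below their WT mean in C5aR-/- TAM 1, 20 in TAM 2 and 23 in TAM 3, with median deviations of 0.10, -0.08 and -0.21. Over all tested genes, 54.1%, 54.5% and 54.0% lay below their WT mean in these libraries, and the medians were -0.05, -0.04 and -0.05. C5aR-/- TAM 3 was the lowest of the 6 libraries for 18 of the 35 genes (51.4%), against 27.5% of all tested genes. It was also lowest for 15 of 26 other NRF2 target genes (57.7%), for 5 of 6 mesothelial genes (83.3%) and for all tested neutrophil, B cell and large peritoneal macrophage markers, and C5aR-/- TAM 1 was highest for 17 of the 26 NRF2 target genes. Within the C5aR-/- group, TAM 1 was highest and TAM 3 lowest with TAM 2 between them for 20 of the 35 genes, against 28.6% of all tested genes. The summed TPM of the macrophage markers had the same order, with 6374, 3661 and 1561 in C5aR-/- TAM 1, 2 and 3, and differed as widely in WT TAMs, with 7166, 2792 and 1751. The part of differing cell content in the values of the 35 genes was not tested. Leaving out C5aR-/- TAM 1 gave 10 called genes, where the share called over all tested genes was 8.57% instead of 4.96%. Of the 10, the 5 genes Gsto1, Gsto2, Gstm2, Gstm6 and Gstm7 then also passed the adjusted threshold, as did 356 of all tested genes (2.41%).

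**Figure D5:**
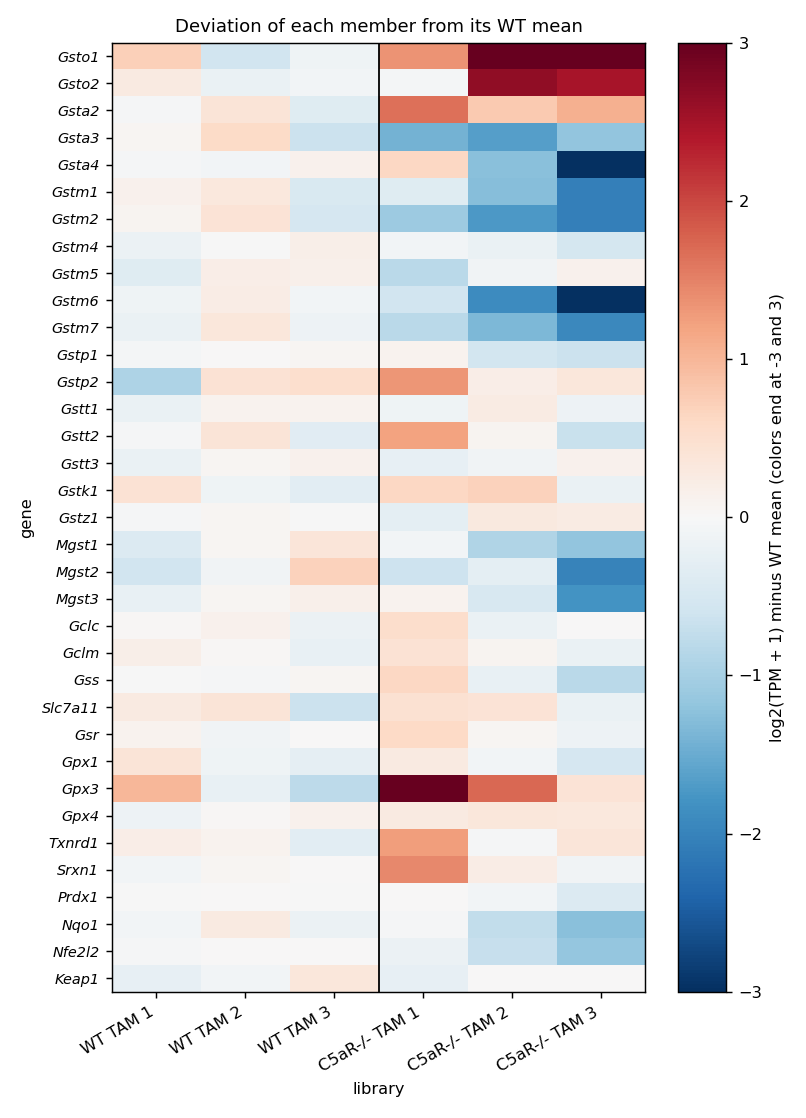
Log2(TPM + 1) minus the WT mean (color) for the 35 tested genes (y axis) in each of the 6 libraries (x axis), with colors ending at -3 and 3. Red is above and blue below the WT mean. C5aR-/- TAM 3 holds the darkest blue (Gsta4 and Gstm6), Gsto1 is dark red in C5aR-/- TAM 2 and TAM 3, and Gpx3 is dark red in C5aR-/- TAM 1.

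RNA of other cell types moved with the same comparison. Mesothelial markers, known from the lining of the peritoneum, were called lower in 4 of 6 genes, while Msln of the same list was above all WT libraries in each C5aR-/- library (log2 difference 0.88, below the 2-fold threshold), and their summed TPM was 1060.4 to 1402 in WT and 721 to 1005 in C5aR-/- TAMs. Neutrophil markers were called lower in 4 of 6 tested genes, with sums of 589 to 2135 and 24.2 to 337 TPM, and large peritoneal macrophage markers in 2 of 6, with sums of 169 to 291 and 102 to 150.5 TPM. Mast cell markers were called lower in 4 of 5 tested genes and Kit was called higher, with sums of 83.6 to 137 and 59.4 to 87.8 TPM. Kit held most of the C5aR-/- sums, at 54.65, 67.99 and 85.38 TPM. Mean TPM in WT and C5aR-/- TAMs was 19.19 and 0.72 for Cpa3, 16.76 and 0.46 for Tpsb2, and 24.55 and 2.987 for Cma1. The mast cell protease gene Mcpt4 had a mean of 15.6 TPM in WT and was listed at 0 in C5aR-/- TAM 2 and TAM 3. The list of keratins, claudins and Epcam, drawn up for the tumor epithelium, had 1 of 6 tested genes called, Cldn3, which was higher. Its sums were 1876 to 2074 and 1802 to 2311 TPM. In this list Epcam was between 2.09 and 6.33 TPM, Krt18 between 457 and 697 TPM and Krt19 between 433 and 1102 TPM. Which cells the keratin RNA came from was not tested. Of the lists for fibroblasts, endothelial cells, T cells, B cells, dendritic cells and erythroid cells, 1 fibroblast gene was called lower and 0 genes of the others were called. The erythroid sum was 26558 TPM in C5aR-/- TAM 1 and 332.5 and 1227 TPM in C5aR-/- TAM 2 and TAM 3. In WT TAMs it was 2526, 7262 and 361 TPM. The macrophage list overlapped, with 1 of 10 genes called higher and sums of 1751 to 7166 and 1561 to 6374 TPM. The sums of the mu class and of the mesothelial, neutrophil and large peritoneal macrophage markers were all lower in every C5aR-/- library than in every WT library. So were the mast cell genes Cpa3, Mcpt4, Tpsb2 and Cma1. The part of all these cells in the differences of the transferases was not tested.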

How the data were processed

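RNA of sorted TAMs was measured in 6 libraries, grouped by the sample labels into 3 WT and 3 C5aR-/-. The authors used fastp for trimming, HISAT2 for alignment, and StringTie and gffcompare for transcript assembly, and deposited TPM values per gene. The submitters' processing notes also name RSEM, DESeq2 and the build mm10, without versions, and whether StringTie or RSEM gave the TPM is not stated. The deposited table also holds the authors' group means, which were not used. TPM keeps no depth, so errors rest on the spread between libraries, which limma moderates toward a trend over all tested genes. Count tests were not run.

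Symbols and positions came from GENCODE M21 (GRCm38, the build that mm10 names), which matched 52073 of 56980 gene IDs. A symbol with several IDs was represented by the ID of highest mean TPM. Genes that reached 1 TPM in 3 or more libraries were tested on log2(TPM + 1) with limma 3.58.1 in R 4.3.3 (lmFit, eBayes with trend, Benjamini-Hochberg adjustment over all 14776). Differences on this scale understate changes of low genes. Genes were called at an unadjusted, and separately an adjusted, p under 0.05 where they also changed 2-fold or more. For 3 against 3 libraries the smallest two-sided exact permutation p is 0.1. The fit was tested on simulated data. Shared sequence was counted as 75-base words of the longest coding transcript found in transcripts of other genes. Values were handled with Python 3.11.15.

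The members, the lists and the tests were chosen with earlier results of these data known. Values in every library are given for members past the unadjusted threshold or with groups that do not overlap, for the synthesis genes, Nfe2l2 and Keap1. Of each other list, up to 3 called genes per direction were to be named. Gsto2, Gsta4, Mgst1, Gpx3, Nqo1, Txnrd1, Srxn1, Hmox1, Itprip and the other named neighbors of the Gsto genes were named after their values were seen. Alternatives tried were quantile normalization and median-of-ratios scaling, omission of the filter, filters at 5 TPM or on a mean of 1 TPM, 0.1 as the pseudocount, a replicate block, array weights, eBayes without trend and leaving out each library.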

Additional observations from a re-analysis of the deposited data

How the results depend on the processing

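Gsto1, Gsta3, Gstm2, Gstm6 and Gstm7 kept their direction and unadjusted call under all 15 alternatives. Over these, 21 of the 35 genes kept their sign and 14 did not. The count of called genes was 7, from 6 to 10 with 1 library left out, and the count at the adjusted threshold, which also asks for a 2-fold change, was 0, from 0 to 5. The 5 arose without C5aR-/- TAM 1. Array weights gave 9, beside 9.47% of all tested genes (1400), and 19 members at an adjusted p under 0.05 whatever the fold, with a weight of 38.6 on C5aR-/- TAM 2 against 0.17 on C5aR-/- TAM 1, and the weighting did not converge. Groups that do not overlap numbered 8, and from 8 to 19 with 1 library left out, where smaller groups overlap less often by construction (24.7% to 42.0% of all genes). The median log2 difference, -0.07, was from -0.15 to 0.004 in these omissions. With the replicate block 8 genes were called, 3 of them higher with Gpx3 added, and 0 at the adjusted threshold. The same-numbered libraries correlated at 0.186, -0.011 and 0.272 in their deviations from the group means. Those for numbers 1 and 3 were the highest of all pairs of a WT and a C5aR-/- library. The crossed pairs of numbers 1 and 3 were the lowest, at -0.228 and -0.23. WT TAM 2 correlated best with C5aR-/- TAM 1 (0.093). The labels name no batch, and whether same-numbered libraries shared one was not tested.

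Signs turned in genes with log2 differences from -0.26 to 0.62. Gstt1 was at 0.025 with quantile normalization, 0.039 with median-of-ratios scaling and 0.183 with array weights. Array weights also gave -0.053 for Gstp2, -0.156 for Gstt2, -0.285 for Gclc, 0.002 for Gpx1, -0.106 for Txnrd1 and 0.072 for Keap1. With 1 library left out, the log2 difference ranged from -0.46 to 0.011 for Gstm5, -0.14 to 0.064 for Gstt1, -0.292 to 0.65 for Gstt2, -0.17 to 0.01 for Gstt3, -0.023 to 0.272 for Gstz1, -0.098 to 0.27 for Gclc, -0.058 to 0.26 for Gclm, -0.523 to 0.193 for Gss, -0.093 to 0.439 for Slc7a11, -0.047 to 0.327 for Gsr, -0.286 to 0.103 for Gpx1 and -0.195 to 0.101 for Keap1. The cause was not tested. TPM holds no depth, so the precision of low genes such as Gsta2, Gsto2 and Slc7a11 cannot be given.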
